A study of Mus musculus with 30 samples.

Results

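The CC chemokines are small secreted proteins with adjacent cysteines near their start that attract leukocytes, and 10 of their genes were chosen by name: Ccl2, Ccl3, Ccl4, Ccl5, Ccl6, Ccl7, Ccl8, Ccl9, Ccl12 and Ccl24. They are 10 of the 45317 gene symbols in the count tables, and all 10 were among the 11566 genes that passed the filter on low counts. RNA was sequenced from 8 populations of monocytes and macrophages sorted from tumour-bearing male and female mice of the strain C57BL6.CCR2RFP/WT, aged 12 to 18 weeks. In these mice 1 allele of Ccr2, the receptor for Ccl2, Ccl7 and Ccl12, carries a red fluorescent protein, so every population came from cells with a single intact Ccr2 allele. GL261 glioma cells, a mouse line engineered to carry green fluorescent protein (GFP) on their membranes, had been implanted in the striatum. Cells from the brain were split into GFPpos cells, which had taken up tumour-derived GFP, and GFPneg cells.

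Ly6Chigh and Ly6Clow blood monocytes came from mice 22, 23 and 24 (n = 3 each), and the GFPneg and GFPpos glioma monocytes from mice 22, 24 and 26 (n = 3 each). The numbers are those of the sample titles and were taken to name the animals, which the labels do not say in words. CCR2high and CCR2low macrophages, each GFPneg and GFPpos, came from mice 22, 23, 24 and 26 (n = 4 each). All 8 populations came from mice with a tumour of 1 cell line, and blood of tumour-free mice was not analysed here. The blood monocytes carry "brain" as their tissue in the sample labels, and were taken as blood from their cell type label. Csf1r, the growth factor receptor that defines monocytes and macrophages, was present in all populations, and Ly6c2, the gene behind the Ly6C gate, was 9.56-fold higher in Ly6Chigh than in Ly6Clow blood monocytes. Between the GFPneg CCR2low and CCR2high macrophages Ccr2 mRNA averaged 72.2 and 243 CPM (counts scaled to a common library size), a 3.37-fold difference that did not pass the test (adjusted p = 0.673, edgeR) and passed it with the mouse as a block (adjusted p = 0.0232).

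CC chemokines bind receptors on leukocytes and draw them along a gradient, and monocytes and macrophages are both their targets and a main source. The ligands fall into groups by function. Ccl2, Ccl7, Ccl8 and Ccl12 are monocyte chemoattractants, of which Ccl2, Ccl7 and Ccl12 act through Ccr2 and are known for drawing monocytes out of the marrow and into inflamed tissue. Ccl3, Ccl4 and Ccl5 are inflammatory ligands, of which Ccl3 and Ccl5 bind Ccr1. Ccl6 and Ccl9 are rodent ligands of Ccr1 that myeloid cells make without activation, and Ccl24 (eotaxin-2) attracts eosinophils through Ccr3.

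The 10 genes lie in 3 places of the mouse genome (GRCm38, GENCODE annotation). Ccl2, Ccl7, Ccl12 and Ccl8 stand in that order between 82035571 and 82116799 of chromosome 11, a span of 81229 bases. Ccl5, Ccl9, Ccl6, Ccl3 and Ccl4 stand between 83525778 and 83664683 of the same chromosome, over 138906 bases, and Ccl24 lies alone on chromosome 5 from 135569937 to 135573049. All are protein-coding. No stretch of 75 bases, the length of a read, was shared between the annotated exons of any of the 10 and another gene. Gm17268, which is annotated antisense around Ccl2, had 0 counts in every replicate.

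Promoters of 5 of the 10 genes were matched in the RefSeq table of the build GRCm38.p6, and all 5 are shown. That table held no entry for Ccl2, Ccl4, Ccl5, Ccl7 and Ccl24. Genes among the 5 followed different patterns across the 8 populations: Ccl8 and Ccl12 were read in the brain only, while Ccl6 and Ccl9 were high in blood. Each runs 5′ to 3′ on the gene's strand from 250 bases before to 50 bases after the annotated start. Capitals mark matches, on either strand, to 5 motifs. They are the TATA box, spelled TATAAA, the ETS motif, spelled GAGGAA, the interferon response motif, spelled GAAANNGAA, the AP-1 motif, spelled TGANTCA, and the kappa B consensus. The Ccl8 promoter is at chr11:82114935-82115234 on the plus strand, Ccl12 at chr11:82101595-82101894 on the plus strand, Ccl3 at chr11:83649329-83649628 on the minus strand, Ccl6 at chr11:83593038-83593337 on the minus strand and Ccl9 at chr11:83578587-83578886 on the minus strand.
Ccl8: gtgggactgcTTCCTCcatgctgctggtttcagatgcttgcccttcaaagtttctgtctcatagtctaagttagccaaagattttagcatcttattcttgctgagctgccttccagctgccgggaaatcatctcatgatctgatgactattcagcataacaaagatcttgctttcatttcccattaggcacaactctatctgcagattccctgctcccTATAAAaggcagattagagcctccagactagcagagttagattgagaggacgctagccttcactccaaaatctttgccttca
Ccl12: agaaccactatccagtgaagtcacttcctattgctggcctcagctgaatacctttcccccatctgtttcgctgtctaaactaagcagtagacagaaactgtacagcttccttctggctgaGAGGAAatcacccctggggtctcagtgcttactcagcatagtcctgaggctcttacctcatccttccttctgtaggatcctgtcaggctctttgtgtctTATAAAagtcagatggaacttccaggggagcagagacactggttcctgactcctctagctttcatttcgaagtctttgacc
Ccl3: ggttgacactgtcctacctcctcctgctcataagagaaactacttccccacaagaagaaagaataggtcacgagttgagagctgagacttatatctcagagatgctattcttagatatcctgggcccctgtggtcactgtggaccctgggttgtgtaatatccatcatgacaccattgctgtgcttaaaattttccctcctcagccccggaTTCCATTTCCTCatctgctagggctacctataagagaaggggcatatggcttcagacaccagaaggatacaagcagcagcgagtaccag
Ccl6: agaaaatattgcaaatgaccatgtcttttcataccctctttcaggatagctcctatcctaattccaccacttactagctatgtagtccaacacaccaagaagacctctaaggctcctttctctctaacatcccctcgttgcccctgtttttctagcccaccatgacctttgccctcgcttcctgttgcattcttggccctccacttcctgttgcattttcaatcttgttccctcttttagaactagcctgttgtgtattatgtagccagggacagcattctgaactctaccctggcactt
Ccl9: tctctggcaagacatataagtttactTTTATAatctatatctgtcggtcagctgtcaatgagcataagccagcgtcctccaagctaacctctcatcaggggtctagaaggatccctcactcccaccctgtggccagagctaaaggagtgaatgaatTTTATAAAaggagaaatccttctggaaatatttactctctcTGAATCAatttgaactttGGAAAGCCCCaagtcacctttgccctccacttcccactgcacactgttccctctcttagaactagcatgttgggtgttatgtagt

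A TATA match began 32 bases before the start of Ccl8 and 31 bases before that of Ccl12, and Ccl9 held such matches only farther out, the nearest at -92. ETS matches lay at -240 in Ccl8, at -130 in Ccl12 and at -33 in Ccl3, where an interferon response match at -39 overlapped it. Ccl9 held the AP-1 match, at -53, and the kappa B match, at -35, and Ccl6 held no match to any of the 5 motifs. Among 32851 promoters of the same length, 13.62% held TATA, 28.28% ETS, 8.56% the interferon response motif, 7.81% AP-1 and 8.46% kappa B. Ccl6 and Ccl9 shared their longest common stretch, gccctccacttcc, at -55 and -14, and Ccl8 and Ccl12 shared gctttcatttc at -81 and 27. The other pairs shared at most 9 bases. These matches describe letters in the window and were not tested for binding.

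The 28 replicates held 1553616 to 5689644 gene counts (median 2140229.5). At this depth 3 counts, the floor used for a gene with none, came to 0.527 to 1.93 CPM. Values here are CPM on library sizes scaled by edgeR (TMM), and a gene was called where the adjusted p (Benjamini-Hochberg over 11566 genes, edgeR's quasi-likelihood test) was under 0.05. Mouse 23 of the Ly6Clow population stood apart. Its first library failed the filter on the number of genes read, with 3460 genes of at least 5 reads. The second, which was used, held transcripts of Ccl24 and Ccl3 that the other 2 Ly6Clow libraries nearly lacked. It also held 1742 CPM of Ccl9, against 583 and 600.5 CPM in mice 22 and 24 of that population. The comparison of the blood populations is given with and without it for Ccl3 and Ccl24, and for Ccl9 with it only.

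**Figure D1:**
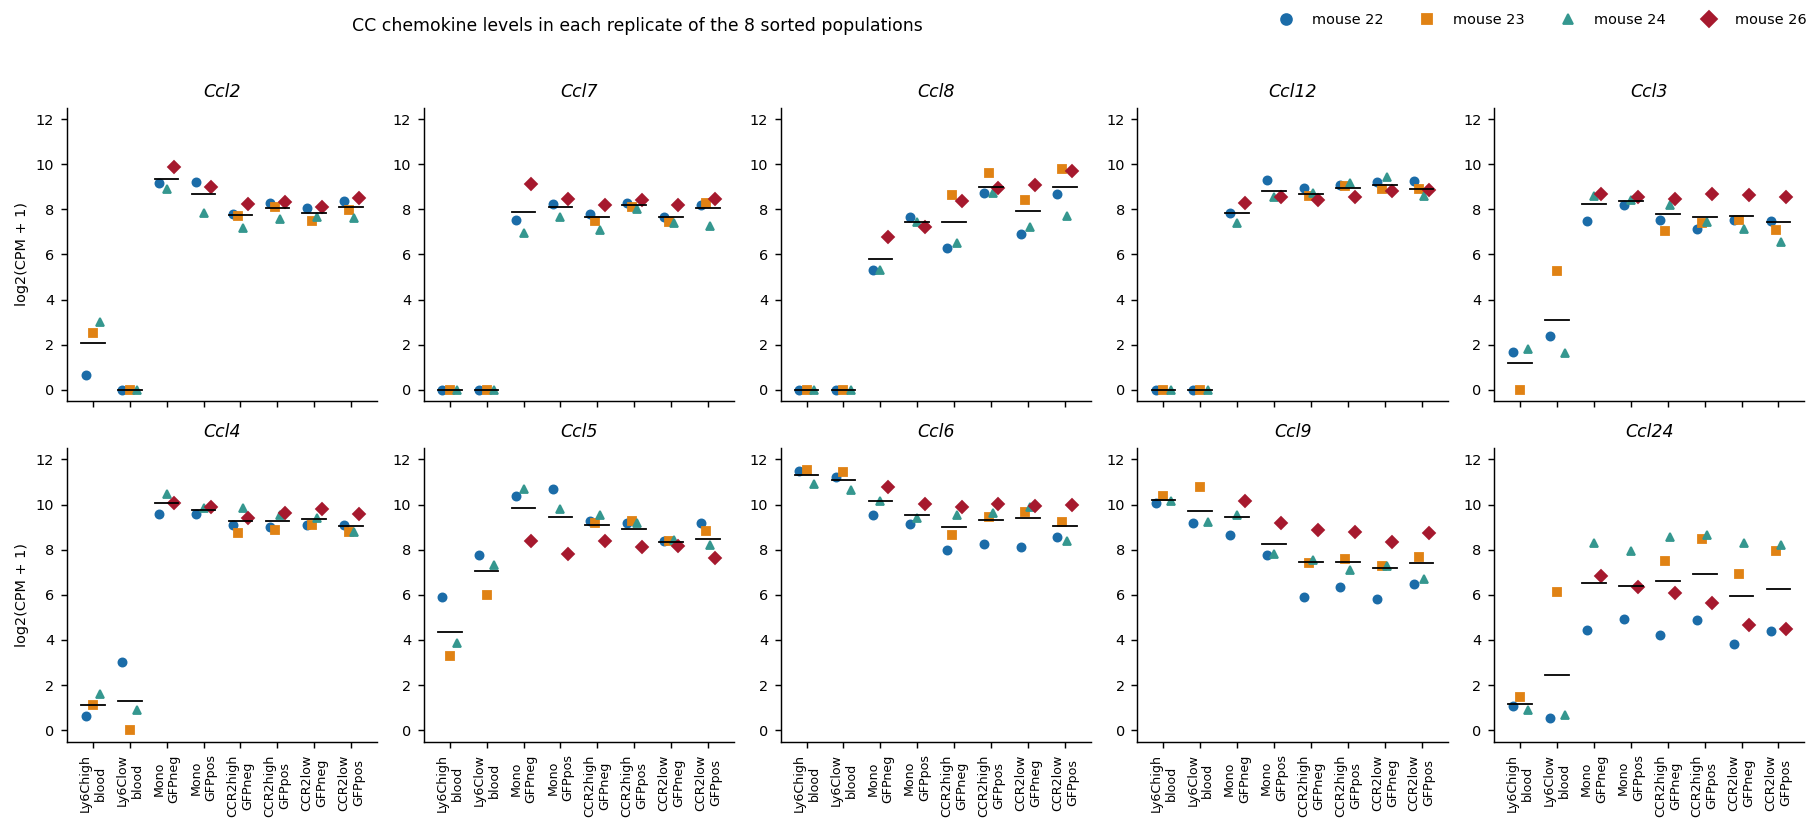
Level of each of the 10 CC chemokine genes in every replicate of the 8 sorted populations. The vertical axis is log2(CPM + 1), each symbol is 1 mouse and each line the mean of these log2 values over the replicates of a population. Ccl7, Ccl8 and Ccl12 lie at 0 in both blood populations, and Ccl6 and Ccl9 are highest in Ly6Chigh blood monocytes.

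Among the ligands of the monocyte-attracting group, Ccl2 was nearly absent from blood and was read in every brain replicate. Ly6Chigh blood monocytes held 0.562, 4.69 and 7.11 CPM of Ccl2 in mice 22, 23 and 24, from 1, 8 and 34 counts, and Ly6Clow blood monocytes held 0 in all 3 libraries. GFPneg glioma monocytes held 574, 480 and 952 CPM in mice 22, 24 and 26 (669 ± 250, SD, n = 3) and GFPpos glioma monocytes 595, 225 and 510 CPM. In macrophages the mean was lower, from 218 ± 64.5 in the GFPneg CCR2high to 283 ± 75.7 in the GFPpos CCR2low population (SD, n = 4 each). No GFPneg glioma monocyte replicate overlapped the GFPneg macrophages, whose 8 replicates lay between 145.5 and 301.9 CPM.

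Ccl7, which neighbours Ccl2 and shares its receptor, was at 0 in all 6 blood replicates. Its mean lay between 206 ± 66.1 CPM in GFPneg CCR2high macrophages and 293 ± 36.1 CPM in GFPpos CCR2high macrophages (SD, n = 4 each). The 6 brain populations overlapped throughout the order of their means. Mouse 26 gave 555.5 CPM in GFPneg glioma monocytes, where mice 22 and 24 gave 186.1 and 121 CPM.

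Ccl12, another ligand of Ccr2, was also at 0 in all blood replicates, and unlike Ccl2 it was lowest, within the brain, in GFPneg glioma monocytes. These held 227.7, 165.4 and 311 CPM in mice 22, 24 and 26, and their GFPpos partners 625, 379 and 377 CPM. GFPneg CCR2low macrophages stood highest, at 588, 479, 684.5 and 448 CPM in mice 22, 23, 24 and 26 (550 ± 108, SD, n = 4). The GFPneg glioma monocytes did not overlap any other brain population, and the other 5 brain populations overlapped their neighbours in order.

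Ccl8, an attractant of monocytes and lymphocytes, was at 0 in all blood replicates and ran from glioma monocytes at the low end to GFPpos macrophages at the high end. GFPneg glioma monocytes held 39.1, 39.1 and 109.7 CPM in mice 22, 24 and 26, and GFPpos glioma monocytes 200, 175 and 150 CPM. GFPneg CCR2low macrophages held 118, 338.5, 147.5 and 548 CPM in mice 22, 23, 24 and 26, and their GFPpos partners 413, 893, 206 and 835 CPM. GFPneg CCR2high macrophages lay between 78.2 and 391.8 CPM and their GFPpos partners between 418.7 and 781 CPM. GFPneg and GFPpos cells did not overlap among glioma monocytes or among CCR2high macrophages and overlapped among CCR2low macrophages, where mice 23 and 26 were high in both.

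Of the inflammatory ligands, Ccl4 was at trace level in blood and the most abundant of the 10 per kilobase of exon in GFPneg glioma monocytes. It stood at 0.562, 1.17 and 2.09 CPM in Ly6Chigh blood monocytes, at 7.08, 0 and 0.888 CPM in Ly6Clow blood monocytes (mice 22, 23 and 24), and at 772.5, 1424 and 1090 CPM in GFPneg glioma monocytes (mice 22, 24 and 26). Brain populations ranged in their means from 550 ± 154 CPM in GFPpos CCR2low macrophages to 1096 ± 326 CPM in GFPneg glioma monocytes (SD, n = 4 and n = 3), and every neighbour in that order overlapped.

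Ccl3, its neighbour on chromosome 11, held 2.25, 0 and 2.51 CPM in Ly6Chigh and 4.25, 37.8 and 2.07 CPM in Ly6Clow blood monocytes (mice 22, 23 and 24). In the brain its means ran from 196 ± 127 CPM in GFPpos CCR2low macrophages (SD, n = 4) to 334 ± 38.2 CPM in GFPpos glioma monocytes (SD, n = 3). The brain populations overlapped, and in all 4 macrophage populations mouse 26 was the highest, at 346 to 408.7 CPM.

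Ccl5, which T cells and NK cells also make, was measurable in every blood replicate. Ly6Chigh blood monocytes held 59, 8.79 and 13.8 CPM and Ly6Clow blood monocytes 219.8, 63.2 and 161.6 CPM in mice 22, 23 and 24. Glioma monocytes spread the most: 1335, 1656 and 338 CPM in the GFPneg and 1666, 906.5 and 223 CPM in the GFPpos population (mice 22, 24 and 26). Mouse 26 was thus the lowest in both. GFPneg CCR2low macrophages were the most even, at 326 ± 26.9 CPM (SD, n = 4).

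Ccl6 and Ccl9, the ligands that resting myeloid cells make, had the opposite order and were highest in Ly6Chigh blood monocytes. Ccl6 stood at 2834, 2994 and 1921 CPM in Ly6Chigh and at 2367, 2754 and 1613 CPM in Ly6Clow blood monocytes (mice 22, 23 and 24), against 747, 1159 and 1737 CPM in GFPneg glioma monocytes (mice 22, 24 and 26). Its macrophage means were 581 to 755 CPM (n = 4 each). Ccl9 stood at 1077, 1327 and 1139 CPM in Ly6Chigh and at 583, 1742 and 600.5 CPM in Ly6Clow blood monocytes, and at 397, 748.5 and 1154 CPM in GFPneg glioma monocytes. In the 4 macrophage populations its mean was 171.5 to 221 CPM (n = 4 each), but single replicates ran from 56.2 to 468.9 CPM. Between neighbours in the order of population means, replicates overlapped throughout for both genes.

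Ccl24, the eosinophil attractant, was near the floor in 5 of 6 blood replicates and spread widely between the mice in the brain. It was at 1.12, 1.76 and 0.836 CPM in Ly6Chigh blood monocytes (2, 3 and 4 counts) and at 0.472, 69.4 and 0.592 CPM in Ly6Clow blood monocytes, from 1, 180 and 2 counts. GFPneg glioma monocytes held 20.6, 312.7 and 112 CPM in mice 22, 24 and 26. GFPneg CCR2high macrophages held 17.7, 182, 381.5 and 67.2 CPM in mice 22, 23, 24 and 26. The brain populations overlapped each other and the Ly6Clow blood monocytes, the latter only through mouse 23, since the lowest brain replicate stood at 13.2 CPM and the other 5 blood replicates at 0.472 to 1.76 CPM.

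Genes can be compared with each other only per length of exon. In GFPneg glioma monocytes the mean CPM per kilobase was 1660 for Ccl4, 1156 for Ccl5, 676.5 for Ccl6, 587.5 for Ccl2, 437 for Ccl12, 423 for Ccl3, 359 for Ccl7, 252 for Ccl9, 123 for Ccl8 and 115 for Ccl24. In Ly6Chigh blood monocytes Ccl6 led on the same scale, at 1439 CPM per kilobase, before Ccl9 at 388. In GFPpos CCR2low macrophages the leading gene was Ccl8, at 1149 CPM per kilobase, followed by Ccl12 at 892.

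The first comparison asked how the chemokine transcripts of circulating Ly6Chigh and Ly6Clow monocytes differ, and few did. Of the 10 genes, Ccl2 was called higher in Ly6Chigh blood monocytes, and Ccl3 and Ccl5 were called lower. Among all genes 1.96% were called higher and 3.65% lower. Since these are bulk samples, fewer cells of a type and less RNA per cell cannot be told apart. Ccl2 was at least 3.57-fold higher, against the floor of 3 counts in each library (adjusted p = 0.000743), and this bound was at least 2.27-fold without mouse 24 of the Ly6Chigh population. Ccl5 was 5.52-fold lower (log2 difference -2.47 ± 0.67, SE, adjusted p = 0.0291), and all 3 Ly6Clow replicates exceeded the highest Ly6Chigh replicate. The Ccl5 call was lost without mouse 23 or mouse 24 of the Ly6Chigh population or mouse 22 of the Ly6Clow population. It was also lost with spike-in scaling (log2 difference -0.99, adjusted p = 0.382), with every gene with a count (adjusted p = 0.119), with the first library only (adjusted p = 0.0525) and in a fit of both blood populations alone (adjusted p = 0.519), and without mouse 22 of the Ly6Chigh population the difference was -3.60 (adjusted p = 0.00687).

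For Ccl3 the log2 difference was -3.0 ± 0.88 (SE, adjusted p = 0.0438), and 0.87 with libraries scaled by added spike-in RNA, but the replicates overlapped and without mouse 23 of the Ly6Clow population it was -0.67 (adjusted p = 0.789). It was also lost without any 1 of the 3 Ly6Chigh replicates. Ccl24 differed by -4.31 ± 1.88 on the log2 scale (adjusted p = 0.175) and by 0.11 with spike-in scaling, and passed with the mouse as a block (-4.03, adjusted p = 0.0356), which brought the calls to 4 of 10, beside 7.97% of all genes with that block. Without mouse 23 of the Ly6Clow population its difference was 1.04 (adjusted p = 0.957). Ccl4, Ccl6 and Ccl9 differed by -0.70 (1.24 with spike-in scaling), 0.20 and 0.28 on the log2 scale (adjusted p = 0.629, 0.88 and 0.885), and Ccl7, Ccl8 and Ccl12 were at 0 on both sides. Transcripts of T cells and NK cells moved with this comparison. Their list of 11 genes summed to 28.7 to 184.3 CPM in Ly6Chigh and to 941.7 to 1655 CPM in Ly6Clow blood monocytes, with 10 of 11 genes called lower in Ly6Chigh. The blood sort took cells with CD45 and CD115 and without CD11c. Whether T and NK cells had a part in the Ccl5 difference was not tested.

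The second question was how the transcripts of cells in the glioma differ from those of the Ly6Chigh blood monocytes, which can enter tissue. In GFPneg glioma monocytes 8 of the 10 genes rose and none was called lower, where 11.1% of all genes were called higher and 2.68% lower. Most of the 10 passed the filter on low counts only through the brain populations, as given below. The share of all genes is therefore no test of the 10. Of the genes with counts in blood, Ccl4 rose most. It was 726-fold higher (log2 difference 9.50 ± 0.71, SE, adjusted p = 5.86e-10), Ccl3 177-fold (7.47 ± 0.95, adjusted p = 2.97e-06) and Ccl5 41.4-fold (5.37 ± 0.76, adjusted p = 1.33e-05). Each was higher in 3 of 3 glioma replicates than in any of the 3 Ly6Chigh replicates. The sizes rest in part on single blood replicates with few counts: without mouse 24 of the Ly6Chigh population the log2 differences of Ccl4 and Ccl3 were 10.2 and 8.09, and without mouse 22 that of Ccl5 was 6.52, all still called.

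All 4 genes of the monocyte-attracting group rose as well. Ccl2 was 147-fold higher (log2 difference 7.20 ± 0.56, SE, adjusted p = 2.91e-09), and its log2 difference was 7.98 without mouse 24 of the Ly6Chigh population. For the genes at 0 in blood only lower bounds can be given: Ccl7 was at least 212-fold higher (adjusted p = 2.17e-09), Ccl12 at least 173-fold (adjusted p = 2.83e-12) and Ccl8 at least 46.2-fold (adjusted p = 1.29e-05). Without mouse 26 of the glioma monocytes the bounds of Ccl7 and Ccl8 were 113-fold and 28.8-fold. Ccl24 was higher by 6.97 ± 1.95 on the log2 scale (adjusted p = 0.0157), a call that was lost without mouse 22, 23 or 24 of the Ly6Chigh population or mouse 24 of the glioma monocytes (adjusted p = 0.0589 to 0.0883). The median log2 difference over the 10 genes was 7.33, or 7.09 with the 3 bounds in place of fitted values, beside 0.12 over all genes tested.

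Ccl6 and Ccl9 did not rise in the glioma. In GFPneg glioma monocytes Ccl6 differed by -1.09 ± 0.50 (SE, adjusted p = 0.168) and Ccl9 by -0.62 ± 0.70 (adjusted p = 0.678) on the log2 scale. With the mouse as a block both fell, by 1.43 (adjusted p = 0.00757) and by 1.08 (adjusted p = 0.0206), and 10 of the 10 genes were called beside 16.1% of all genes.

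GFPneg CCR2high macrophages differed from Ly6Chigh blood monocytes in all 10 genes, with 8 called higher and 2 lower (12.7% and 5.14% of all genes). GFPneg CCR2low macrophages gave the same counts, 8 higher and 2 lower (14.1% and 6.09% of all genes). These comparisons and the one of glioma monocytes share their 3 blood replicates. Ccl2 was higher by 5.59 ± 0.52 and 5.66 ± 0.52 on the log2 scale in CCR2high and CCR2low macrophages. Ccl4 was higher by 8.74 and 8.79, Ccl3 by 7.03 and 6.94 and Ccl5 by 4.40 and 3.60. Without mouse 24 of the Ly6Chigh population these differences were 6.37 and 6.44 for Ccl2, 9.47 and 9.52 for Ccl4 and 7.65 and 7.57 for Ccl3, and without mouse 22 they were 5.53 and 4.74 for Ccl5. Ccl7 was at least 152-fold and at least 154-fold higher, Ccl8 at least 163-fold and at least 212-fold, and Ccl12 at least 303-fold and at least 405.5-fold. The median log2 difference of the 10 genes was 7.06 and 6.79, beside 0.15 and 0.17 over all genes.

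Ccl6 and Ccl9 fell in both macrophage populations. Ccl6 fell by 2.13 ± 0.47 in CCR2high and by 1.77 ± 0.46 in CCR2low macrophages on the log2 scale (SE, adjusted p = 0.00164 and 0.00684). Ccl9 fell by 2.41 ± 0.66 and by 2.78 ± 0.67 (adjusted p = 0.0107 and 0.00341), the former by 3.12 without mouse 26 of the macrophages. All 4 macrophage replicates lay below all 3 Ly6Chigh replicates for both genes in both populations. With spike-in scaling the differences kept their direction and did not pass (adjusted p = 0.296 and 0.288 for Ccl6, 0.265 and 0.119 for Ccl9). Ccl24 was higher by 7.10 ± 1.93 and 6.64 ± 1.90 (adjusted p = 0.0101 and 0.0135), and by 6.18 and 5.45 without mouse 24 of the macrophages. Its call was lost in the first case without mouse 24 of the Ly6Chigh population (adjusted p = 0.0649) and in the second without any 1 of the 3 Ly6Chigh replicates (adjusted p = 0.0527 to 0.0768).

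The brain was digested with enzymes at body temperature and the blood was not, so tissue and handling cannot be told apart. The list of 19 immediate-early and heat-shock genes summed to 2136 to 3408 CPM in blood, to 16300 to 26210 CPM in GFPneg glioma monocytes and to 6584 to 14780 CPM in macrophages. Targets of NF-kB, a factor known to switch on Ccl2, Ccl3, Ccl4 and Ccl5, summed to 1367 to 1974 CPM in blood, to 7743 to 12400 CPM in GFPneg glioma monocytes and to 2237 to 6731 CPM in macrophages. The 15 targets did not all rise over Ly6Chigh blood monocytes. In GFPneg glioma monocytes 9 were called higher and 1 lower, in GFPneg CCR2high macrophages 6 and 2, and in GFPneg CCR2low macrophages 5 and 1. Their median log2 differences were 1.38, 0.74 and 0.25 in that order. The 7 microglia genes summed to 58.6 to 284.7 CPM in blood and to 1680 to 8809 CPM in the brain populations. The brain sort set infiltrating cells apart from microglia by their high CD45 and CD11b, a gate meant to leave microglia out. The T and NK cell genes summed to 28.7 to 184.3 CPM in Ly6Chigh blood monocytes, to 911.7 to 2025 CPM in GFPneg glioma monocytes, to 911.2 to 2870 CPM in GFPneg CCR2high and to 1254 to 2953 CPM in GFPneg CCR2low macrophages, with 10, 10 and 11 of 11 genes called higher than in Ly6Chigh blood monocytes. The part of handling, of microglia or of T and NK cells in the rise of the chemokines was not tested. All 10 genes passed the filter, 7 of them only through the brain populations, since a filter over blood alone kept 3 (Ccl5, Ccl6 and Ccl9). The counts and medians of the 10 genes against blood, in glioma monocytes and in macrophages, are therefore descriptions and not tests of the group.

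Within the brain, macrophages were set against glioma monocytes of the same GFP status. GFPneg CCR2low macrophages held more Ccl12 and less Ccl2 than GFPneg glioma monocytes, 2 calls of 10 where 1.21% of all genes were called. Ccl12 was 2.34-fold higher (log2 difference 1.23 ± 0.26, SE, adjusted p = 0.0179), with all 4 macrophage replicates above all 3 monocyte replicates. Ccl2 was 2.90-fold lower (-1.54 ± 0.39, adjusted p = 0.0479), also without overlap. The Ccl2 call was lost when any 1 of the 7 replicates was left out (adjusted p = 0.0748 to 0.268), and the Ccl12 call without mouse 22 or 24 of the glioma monocytes or mouse 24 of the macrophages. Microglia genes moved with this comparison, at 3293 to 8809 CPM in GFPneg CCR2low macrophages against 1680 to 2835 CPM in GFPneg glioma monocytes, with Olfml3 and Tmem119 called higher of the 7. Their part in the Ccl12 and Ccl2 differences was not tested.

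With the mouse as a block, 4 of the 10 genes were called in this comparison, beside 2.46% of all genes. Ccl8 was then higher by 1.91 ± 0.40 (SE, adjusted p = 0.0118) and Ccl9 fell by 2.33 ± 0.30 (adjusted p = 3.1e-05) on the log2 scale. Without the block they differed by 2.21 ± 0.64 (adjusted p = 0.115) and -2.16 ± 0.66 (adjusted p = 0.129), and neither gene's replicates overlapped between the populations. Ccl5 differed by -1.77 ± 0.58 (adjusted p = 0.191) and by -1.45 with the block (adjusted p = 0.0803).

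GFPneg CCR2high macrophages against GFPneg glioma monocytes gave 0 calls among the 10 genes by edgeR, 5 with an unadjusted p under 0.05, and 0.182% of all genes were called. DESeq2 called 1, Ccl2. With the mouse as a block edgeR called Ccl2, which fell by 1.56 ± 0.33 (SE, adjusted p = 0.0205), and Ccl9, which fell by 2.05 ± 0.29 (adjusted p = 0.000477), beside 0.83% of all genes. Without the block Ccl2 differed by -1.61 ± 0.39 (adjusted p = 0.0852), Ccl9 by -1.79 ± 0.65 (adjusted p = 0.561), Ccl8 by 1.83 ± 0.63 (adjusted p = 0.466) and Ccl12 by 0.81 ± 0.26 (adjusted p = 0.35).

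In the GFPpos populations neither comparison of macrophages with glioma monocytes called any of the 10 genes by edgeR or by DESeq2, and 0.0173% (CCR2high) and 0.164% (CCR2low) of all genes were called by edgeR. The gene with an unadjusted p under 0.05 was Ccl8 for CCR2high macrophages (log2 difference 1.60 ± 0.61, SE, adjusted p = 0.773), and Ccl8 and Ccl5 had one for CCR2low macrophages (1.74 ± 0.62, adjusted p = 0.505, and -1.30 ± 0.58, adjusted p = 0.705). With spike-in scaling the Ccl5 difference was 1.32 (adjusted p = 0.26). Ccl12, which separated the GFPneg populations, differed by 0.06 between GFPpos CCR2low macrophages and GFPpos glioma monocytes (95% interval -0.46 to 0.58).

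CCR2low and CCR2high macrophages did not differ by the test in any of the 10 genes. Of all genes 0% were called among the GFPneg and 0% among the GFPpos cells by edgeR, 0 of the 10 had an unadjusted p under 0.05 in either, and DESeq2 called 0 of them. The intervals show what could have been missed. For Ccl12 the log2 difference of GFPneg cells was 0.42 (95% interval -0.06 to 0.91), for Ccl8 0.38 (-0.75 to 1.5) and for Ccl24 -0.45 (-2.86 to 1.96). The interval of Ccl24 spans changes of several fold either way.

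**Figure D2:**
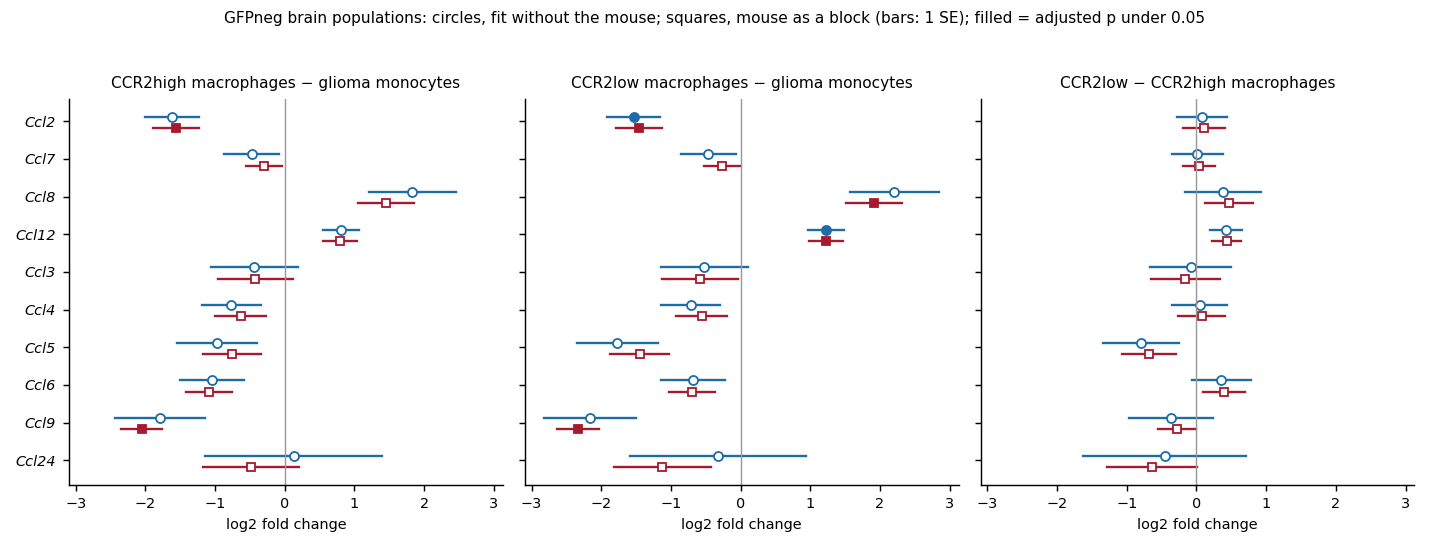
Log2 differences of the 10 CC chemokine genes among the GFPneg brain populations, with bars of 1 standard error. Circles are from the fit without the mouse and squares from the fit with the mouse as a block, and filled symbols have an adjusted p under 0.05. Ccl2 and Ccl9 lie to the left and Ccl8 and Ccl12 to the right of 0 in both comparisons with glioma monocytes, and no symbol is filled between CCR2low and CCR2high macrophages.

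The comparison of GFPpos with GFPneg cells asked whether cells that took up tumour membrane differ from those that did not. By edgeR without a block it called 0 of the 10 genes and 0% of all genes in glioma monocytes, 0 and 0% in CCR2high macrophages and 0 and 0% in CCR2low macrophages, and DESeq2 called 0 of the 10 in each. The genes with an unadjusted p under 0.05 were 2 (Ccl8 and Ccl12), 1 (Ccl8) and 0 in that order. For the mean difference over the 3 pairs of populations, and for the test that the difference varied among them, 0 of the 10 and 0% of all genes were called. Ccl12 in glioma monocytes differed by 0.97 ± 0.27 on the log2 scale (adjusted p = 0.638 by edgeR), and by -0.74 with spike-in scaling, under which all genes had a median of -1.37 there.

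Ccl8 stood apart in these pairs. It was higher in the GFPpos than in the GFPneg cells of the same mouse in 11 of 11 pairs, by 1.37-fold to 5.35-fold with a median of 2.64-fold, and with spike-in scaling in 8 of 11, which were the 8 macrophage pairs and 0 of the 3 monocyte pairs. In glioma monocytes the ratios were 5.12, 4.48 and 1.37 in mice 22, 24 and 26. In CCR2high macrophages they were 5.35, 1.99, 4.77 and 1.51, and in CCR2low macrophages 3.49, 2.64, 1.40 and 1.52, in mice 22, 23, 24 and 26. Mouse 26 had ratios of 1.37 to 1.52, among the smallest in each population. Because the populations of a mouse share its tumour, the 11 pairs are 4 mice and not 11 independent pairs.

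The mean difference of Ccl8 over the 3 pairs of populations was 1.26 ± 0.34 on the log2 scale (SE, adjusted p = 0.586 by edgeR). With the mouse as a block it was 1.47 ± 0.22 (adjusted p = 0.0125), and 0.0259% of all genes, 3 genes in number, were called. An exact sign-flip permutation test over the 4 mouse means, chosen after the data were seen, gave a two-sided p = 0.125, the smallest that 4 mice allow. The blocked call was lost without mouse 22 (1.18, adjusted p = 0.485), without mouse 24 (1.34, adjusted p = 0.521) and with spike-in scaling (0.74, adjusted p = 0.569), with the direction of the mean kept, while in glioma monocytes alone the unblocked difference was -0.32 with spike-in scaling and 1.49 without. It held without mouse 23 or 26.

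**Figure D3:**
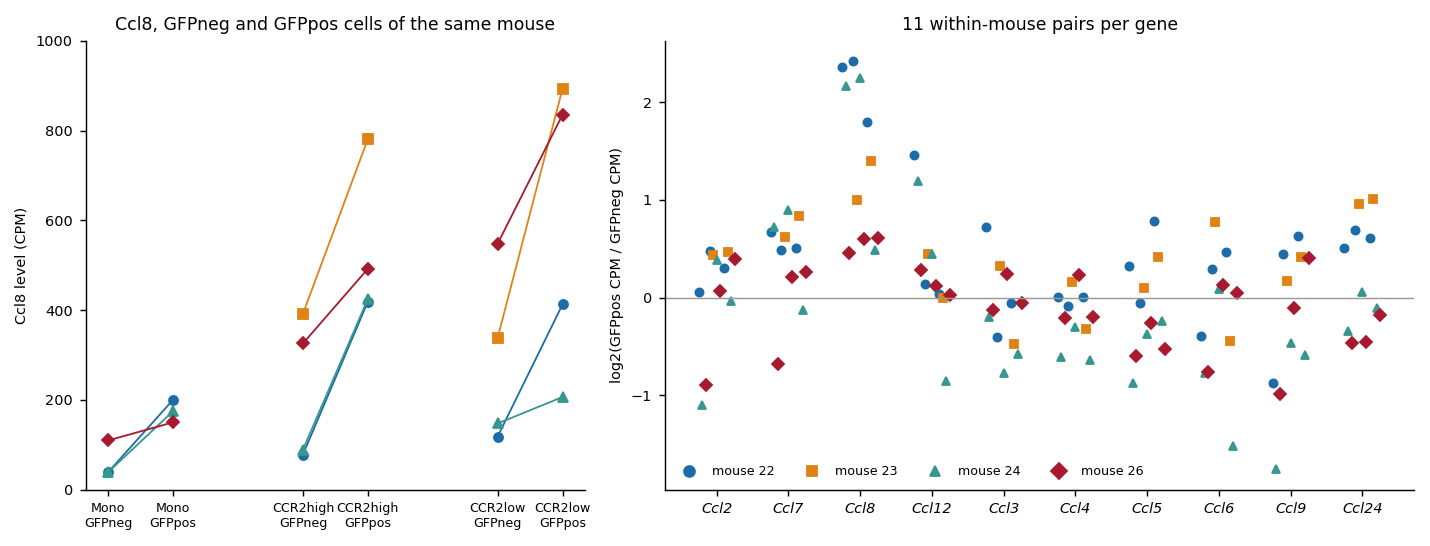
On the left, Ccl8 in CPM in GFPneg and GFPpos cells of the same mouse, joined by lines, for glioma monocytes (Mono) and both kinds of macrophages. On the right, log2 of the GFPpos to GFPneg ratio of CPM for each of the 10 genes, with 1 symbol per pair and its shape and colour giving the mouse. On this scale, edgeR's TMM, Ccl8 lies above 0 in 11 of 11 pairs (8 of 11 with spike-in scaling), and each of the other genes lies on both sides of 0.

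The other monocyte attractants were higher in GFPpos cells in most pairs and without a call, Ccl7 in 9 of 11 (median ratio 1.42), Ccl12 in 9 (1.1) and Ccl2 in 8 (1.24), against 6, 4 and 5 pairs with spike-in scaling. The inflammatory ligands were higher in fewer, with Ccl3 in 3, Ccl4 in 4 and Ccl5 in 4 of 11 pairs. Ccl6, Ccl9 and Ccl24 were higher in 6, 5 and 6 pairs. Some marker lists moved in the same pairs. The 5 platelet genes, of which Pf4 is also on the border-associated macrophage list, summed higher in GFPpos cells in 11 of 11 pairs (1.11-fold to 3.87-fold), the border-associated macrophage genes in 8, the T and NK cell genes in 2 and the immediate-early genes in 0 of 11. The platelet sum was mainly Pf4, with medians of 100.3 CPM for the sum and 98.3 CPM for Pf4 in GFPpos CCR2high macrophages. The border-associated sum there came mainly from F13a1, Mrc1 and Pf4 (means of 246, 210 and 121 CPM). Its other genes averaged 5.14 to 16.7 CPM, and F13a1 averaged 4637 CPM in Ly6Chigh blood monocytes. The part of these lists in the Ccl8 difference was not tested.

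The mice themselves differed in these genes. In a comparison added after the data were seen, the 16 macrophage replicates (4 populations of 4 mice) were tested for any difference between mice, with the population kept in the model. By edgeR 9 of the 10 genes were called, where 17.9% of 10578 genes were. Ccl12 was the exception (adjusted p = 0.0866). The mouse took a median of 65.0% of the variation in log2 CPM of the 10 genes, beside 33.3% over all genes, and the population took 14.4% and 17%. Populations from 1 mouse share its sex, its tumour, its sort and its handling, so the mouse and anything shared by its samples cannot be told apart. The study used male and female mice, and the sex of each was not used here.

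Ccl24 and Ccl9 varied most by mouse. Ccl24 averaged 19.9, 225, 346 and 40.5 CPM over the macrophages of mice 22, 23, 24 and 26 (n = 4 populations each), a 17.4-fold span (adjusted p = 3.37e-07), with mouse 24 the highest and mouse 22 the lowest in 4 of 4 populations. Ccl9 averaged 70.5, 179, 146 and 412.5 CPM (adjusted p = 1.88e-06), and the mouse took 93.3% of its variation and 92.4% of that of Ccl24. The 2 genes ordered the mice differently, since mouse 26 was highest for Ccl9 and near the bottom for Ccl24.

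Ccl6 averaged 303, 630, 704 and 995 CPM in mice 22, 23, 24 and 26 (adjusted p = 0.00325), and Ccl3 averaged 172, 154, 175 and 381.5 CPM (adjusted p = 0.00177). For Ccl3, Ccl6 and Ccl9 every replicate of mouse 26 lay above every replicate of the other mice. Mouse 26 had the highest mean for 6 of the 10 genes (Ccl2, Ccl3, Ccl4, Ccl6, Ccl7 and Ccl9) and the lowest for Ccl5 and Ccl12. Ccl5 was lowest in mouse 26 in 4 of 4 populations (273 CPM on average, against 490.5 to 527 in the others, adjusted p = 0.00842). Ccl8 averaged 257, 601, 217 and 550 CPM (adjusted p = 0.00504).

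Without mouse 26 the comparison called 3 genes, Ccl8, Ccl9 and Ccl24, beside 4.3% of all genes. Without mouse 22, 23 or 24 it called 8 in each case, beside 11.5%, 22.1% and 10.2% of all genes. Marker lists differed between the mice as well. Over macrophages the border-associated genes summed to 855.9 to 1666 CPM in mouse 26 and to 117.5 to 689.6 CPM in the other mice, the platelet genes to 167.7 to 253.8 and 35.3 to 126.1 CPM. As in the GFP pairs, the first sum came mainly from F13a1, Mrc1 and Pf4 and the second mainly from Pf4. The neutrophil genes summed to 387.4 to 2168 CPM in mouse 24 and to 9.37 to 99.1 CPM in mouse 22. The NF-kB targets summed to 4746 to 6731 CPM in mouse 26 and to 3322 to 5555 CPM in mouse 22, which overlapped, and to 2237 to 4182 CPM in mice 23 and 24. Their part in the differences of the chemokines was not tested.

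**Figure D4:**
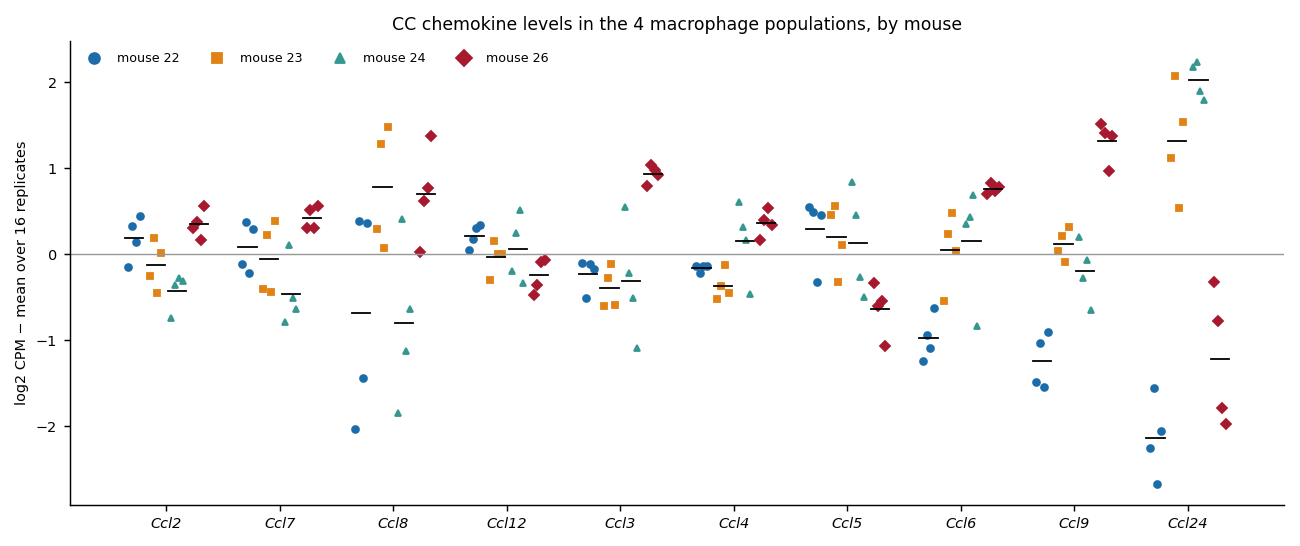
Log2 CPM of the 10 CC chemokine genes in the 16 macrophage replicates, less the mean of the gene over those replicates. Each symbol is 1 of the 4 macrophage populations of a mouse and each line the mean of that mouse. Mouse 26 lies above the others for Ccl3, Ccl6 and Ccl9, and Ccl24 is highest in mouse 24 and lowest in mouse 22.

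Some of the 10 genes varied together across the brain samples. Over the 22 brain replicates, which share 4 mice, Pearson's r of log2 CPM was 0.89 between Ccl6 and Ccl9 and 0.83 between Ccl3 and Ccl4. Ccl3 and Ccl9 gave 0.73, and Ccl4 gave 0.71 with both Ccl6 and Ccl9. Ccl2 and Ccl7 gave 0.55 (Spearman's rho 0.60) and Ccl8 and Ccl12 0.53 (rho 0.30). Ccl12 ran against Ccl9 (-0.67) and Ccl4 (-0.54). These values describe 22 replicates that also share sorts and library preparation.

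**Figure D5:**
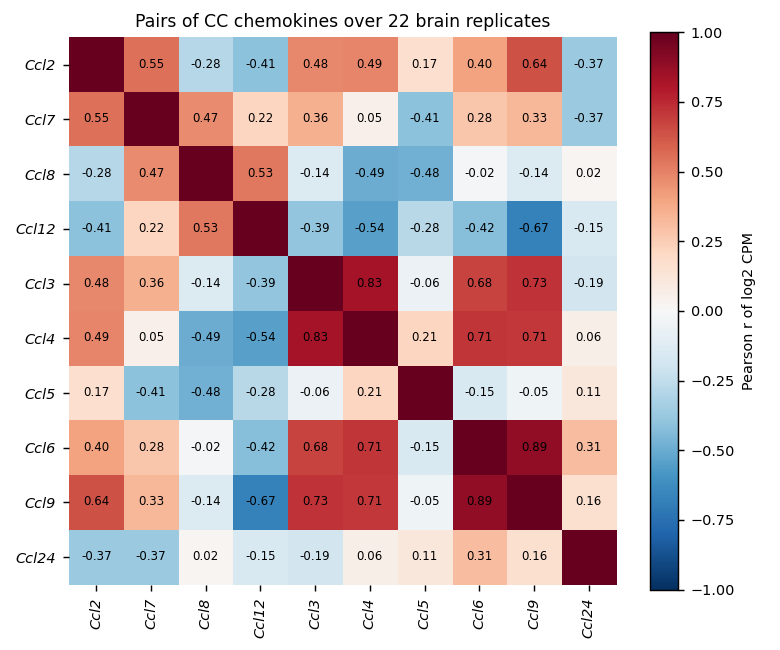
Pearson's r of log2 CPM between the 10 CC chemokine genes over the 22 brain replicates. Ccl3, Ccl4, Ccl6 and Ccl9 form a block of values from 0.68 to 0.89, and Ccl12 has negative values with Ccl9 and Ccl4.

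Outside the 10, the genes whose brain pattern was most like each were named by the highest Pearson's r over the same 22 replicates. For Ccl2 these were Clec4d (0.87, Spearman's rho 0.86), Fcgr1 and Clec4e, and for Ccl7 C5ar1 (0.87, rho 0.85), Mt1 and Hmox1. For Ccl8 they were Snx24 (0.89, rho 0.85), Vcam1 (0.89, rho 0.90) and Stmn1, and for Ccl12 G6pc3 (0.87, rho 0.75), Yae1d1 and Alg8. Ccl3 was nearest to Il1r2 (0.83, rho 0.84), Gadd45b and Ifitm1, and Ccl4 to Il6 (0.90, rho 0.87), Hdc and Klf6. Ccl5 had the closest match of all, Atox1 (0.98, rho 0.93), followed by Batf2 and Arl5c. Ccl6 was nearest to Hspa1a (0.85, rho 0.85), Hbegf and Rel, and Ccl9 to Thbs1 (0.88, rho 0.87), Srgn and Hspa1a, which is a heat-shock gene. For Ccl24 the nearest, Pdcd1lg2 (0.77, rho 0.74), was followed by Hnrnpc and RP24-378G4.3.

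Of 13 further CC and related ligands, 6 were tested. Against Ly6Chigh blood monocytes 4 rose and 0 fell in each GFPneg brain population, beside 11.1%, 12.7% and 14.1% of all genes called higher in glioma monocytes, CCR2high and CCR2low macrophages. They were Ccl1, Ccl17, Ccl22 and Cx3cl1. In blood Ccl1, Ccl22 and Cx3cl1 were at 0 in every replicate and Ccl17 at no more than 0.296 CPM. These genes thus passed the filter on low counts only through the brain populations. The share of all genes is therefore no test of this list. Ccl22, a ligand of Ccr4 made by dendritic cells and macrophages, was at 0 in blood and at least 86.6-fold higher in GFPneg glioma monocytes, at least 119-fold in CCR2high and at least 13.5-fold in CCR2low macrophages. Ccl17, its neighbour in function, was at least 23.7-fold, at least 34.5-fold and at least 9.61-fold higher. Ccl1, a ligand of Ccr8, was at least 5.10-fold, at least 14.3-fold and at least 28-fold higher. Cx3cl1 averaged 3.90, 9.37 and 5.17 CPM in the same populations, and its call in glioma monocytes did not pass with the mouse as a block (adjusted p = 0.0524). In blood and among the brain populations 0 of the 6 were called by edgeR, but Ccl22 was called in GFPneg CCR2low macrophages against GFPneg glioma monocytes with the mouse as a block (adjusted p = 0.0494, and 0.114 without it).

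Of 12 receptors 10 were tested. In blood Ccr2 was 3.67-fold and Ccr1 3.31-fold higher in Ly6Chigh than in Ly6Clow monocytes, and Ccr7 was lower (18.5 against 159 CPM). The list of 6 dendritic cell genes, which includes Ccr7, summed to 100.2 to 218.9 CPM in Ly6Chigh and to 577.9 to 1895 CPM in Ly6Clow blood monocytes. It summed to 240.3 to 568.6 CPM in GFPneg glioma monocytes. In blood Ccr7 was the only 1 of the 6 called. The part of dendritic cells in the Ccr7 differences was not tested. GFPneg glioma monocytes had 6 receptors called higher than Ly6Chigh blood monocytes and 0 lower (11.1% and 2.68% of all genes), among them Ccr1, the receptor of Ccl3, Ccl5, Ccl6 and Ccl9 (1075 against 205 CPM, 5.26-fold). Ccrl2, an atypical receptor, was 159-fold higher and Ccr7 17-fold, and Ccr6, Ccr8 and Ccr9 also rose. Ccr8 was at 0 in every blood replicate, and so passed the filter only through the brain populations. For the receptors, too, the share of all genes is therefore no test of the list. Ccr2 averaged 781 against 2060 CPM, which passed with the mouse as a block (adjusted p = 0.00638) and not without it (adjusted p = 0.0553). Both macrophage populations had 6 called higher and 1, Ccr2, lower, beside 12.7% and 5.14% of all genes in CCR2high and 14.1% and 6.09% in CCR2low macrophages. Ccr2 was 8.46-fold lower in CCR2high and 28.5-fold lower in CCR2low macrophages. The sort used the reporter in Ccr2, so that its levels follow the gates. Ccr3, the receptor of Ccl24, was called in GFPneg CCR2low macrophages (49.8 against 1.83 CPM, adjusted p = 0.00897). In their GFPpos partners it averaged 3.35 CPM. The 4 eosinophil genes summed to 37.99 to 180.8 CPM in GFPneg CCR2low macrophages and to 0 to 4.49 CPM in Ly6Chigh blood monocytes. Of the 3 tested, Prg2 and Siglecf were called higher, and their part in the Ccr3 difference was not tested. Xcr1 was called in GFPneg CCR2high macrophages. Of 4 atypical receptors 2 were tested, and Ackr1 was called in GFPneg CCR2low macrophages. Its mean there, 8.75 CPM, was at least 6.45-fold higher than in Ly6Chigh blood monocytes. The replicates ran from 0 to 30.7 CPM with a median of 2.16, so this bound rests mainly on the highest replicate. The call did not pass with the mouse as a block (adjusted p = 0.0599). GFPneg glioma monocytes, where Ackr1 was not called, averaged 9.77 CPM.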

How the data were processed

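The authors sorted the cells, made libraries from total RNA with a kit for ultra-low input and a transposase step, neither of which keeps the strand, and added 92 spike-in RNAs. Their reads were aligned to the mouse genome with STAR, duplicates were removed with Picard (1.8.4, genome build GRCm38.p3, per the submitters' processing notes), and whole-number read counts per gene symbol were made with HTSeq and deposited as raw counts in 2 tables. Removing duplicates can lower the counts of abundant short transcripts. Reads in no feature made 6.28% to 17.4% and ambiguous reads 1.58% to 1.9% of a replicate, and both stayed out of library sizes and tests. Of 30 libraries, 1 had fewer than 6000 genes with at least 5 reads and was left out, and the counts of 2 libraries of 1 sample were summed, which left 28 replicates (6 of blood, 22 of brain).

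The 10 genes and all lists were chosen with earlier results of these data known. Counts were tested with edgeR 4.0.16 (quasi-likelihood, TMM, filterByExpr, robust) in R 4.3.3 in 1 fit over the 8 populations, with p-values adjusted over 11566 genes. DESeq2 1.42.0, other scalings and filters, a mouse block and leaving out each replicate were alternatives. The named genes were the 10, any called gene of the ligand and receptor lists, and the 3 genes most like each of the 10. 1 gene of the receptor list is not reported here. The steps were tested on simulated data.

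The sample titles carry 4 numbers, each once per population apart from repeat libraries, and the study used 4 animals, so the number was taken as the animal and as the pairing. The labels do not say this in words, and every blocked value and every pair of the same mouse rests on it. The deviations of same-mouse samples from their population means correlated at a median of 0.136 (86 pairs, -0.0971 to 0.674, 47 over 0.1), those of different mice at -0.0303. Within blood or within brain the same-mouse median was 0.221, and between blood and brain 0.0163. The total counts limit precision, and floors of 3 counts cover counting error only. Depth per replicate was 1553616 to 5689644 gene counts.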

Additional observations from a re-analysis of the deposited data

Results flagged for a closer look

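In groups of 4 replicates, 2 of 40 had a replicate set far from the rest, where chance gives about 1 in 20. Both belonged to mouse 26 in GFPpos CCR2high macrophages. Ccl3 stood at 408.7 CPM there, against 140 to 171.1 CPM in the other 3 mice, and Ccl5 at 275.9 CPM, against 573.6 to 615.9 CPM. Mouse 26 was also the highest for Ccl3 and the lowest for Ccl5 in the other macrophage populations.

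Ccl6 differed in opposite directions in 2 populations on the TMM scale, though not with spike-in scaling, which gave a log2 difference of -0.03 in CCR2high macrophages. It was higher in GFPpos than in GFPneg CCR2high macrophages in 4 of 4 mice, with a median ratio of 1.159, and lower in GFPpos glioma monocytes in 3 of 3 mice, with ratios of 0.762, 0.586 and 0.592. The first ratio rests on 2 summed libraries of mouse 22, which held 198.7 and 612.9 CPM of Ccl6 on their own totals, and the log2 difference in glioma monocytes was -0.68 with both, -0.96 with the first library only and -0.65 with the second only. The interaction test, which asks whether the difference varied among the 3 brain populations, did not pass (adjusted p = 1 by edgeR).

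The library of mouse 23 from Ly6Clow blood monocytes that was left out for too few genes read held transcripts of 4 of the 10 genes above the floor of 3 counts. On its own total it gave 22.9 CPM of Ccl5, 3271 CPM of Ccl6, 650.2 CPM of Ccl9 and 94.33 CPM of Ccl24. The library that was used gave 60.95, 2655, 1679 and 66.9 CPM in the same order. Ccl3 was at 0 in the left-out library and at 36.4 CPM in the used one.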

How the results depend on the processing

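Of 2295 values of single genes under alternatives, 2072 kept their direction and side of the threshold, 43 lost and 14 gained a call, 165 changed sign without a call on either side, and 1 called value reversed: Ccl3 in Ly6Chigh against Ly6Clow blood monocytes, at 0.87 with spike-in scaling. The cause was not tested. Spike-in RNA made 13.27% of gene and spike-in counts in mouse 23 of the Ly6Clow population, and 0.29% to 2.47% in the other blood replicates. It made 3.59%, 5.16% and 0.612% in GFPpos glioma monocytes of mice 22, 24 and 26. In their GFPneg partners it made 0.596%, 0.742% and 0.319%. Spike-in scaling took the median log2 difference of all genes from 0.02 to 1.69 in blood, from -0.03 to 1.7 for GFPpos CCR2low macrophages against GFPpos glioma monocytes and from 0.07 to -1.37 for GFPpos against GFPneg glioma monocytes.

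Calls among the 10 genes in blood (3) became 1 with spike-in scaling, 1 with every gene with a count, 1 with at least 10 counts in every replicate, 1 with the first library only and 0 in a fit of those populations alone, and were 1 to 3 with a replicate left out. Over all genes that comparison called 649, and 36, 397, 578, 400 and 0 under these settings, and 1359 by DESeq2. The filter of 10 counts kept 3 of the 10 genes, so the calls against blood became 1 (glioma monocytes, from 8), 3 (CCR2high macrophages, from 10) and 3 (CCR2low macrophages, from 10); leaving out a replicate gave 7 to 8, 9 to 10 and 9 to 10. CCR2high macrophages against glioma monocytes (0) gave 2 with the replicate block, 1 by DESeq2 and 1 in a fit of both populations alone. CCR2low macrophages against glioma monocytes (2) gave 4 with the replicate block, 4 by DESeq2, 1 with DESeq2's size factors, 0 with spike-in scaling, 1 with every gene with a count, 0 with the 10-count filter and 1 with the first library only, and 0 to 1 with a replicate left out. GFPpos against GFPneg (0) gave 1 with the replicate block, Ccl8. The block also called Ccl24 in blood and Ccl6 and Ccl9 in glioma monocytes against blood, and changed no other call among the 10 genes in the comparisons it was run on.

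The population with the highest mean stayed the same for 6 of 10 genes with spike-in scaling. The comparison of mice (9 calls) gave 5 without the GFPneg CCR2high population and 3 to 8 without a mouse. The blocked Ccl8 difference (1.47) was 0.74 with spike-in scaling and 1.18 to 1.8 without a mouse. With 3 or 4 mice a group, differences of Ccl24 and Ccl8 of several fold could pass unseen, as their intervals show.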
